A study of Mus musculus with 8 samples.

Results

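Gene desert regions are stretches of open chromatin that lie far from every protein-coding gene. Here they were the union regions, from the 8 ATAC-seq peak lists merged wherever peaks shared 1 bp on chromosomes 1 to 19 and X, whose strongest summit lay over 100 kb from every protein-coding gene span of the mouse mm10 assembly. This held for 9083 of 138385 union regions (6.56%). Distance to genes alone chose them, so their strength, presence and clustering were free to vary. They were set beside 29833 intergenic regions at 10 to 100 kb from a gene.

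ATAC-seq reads open chromatin through the sites at which a transposase inserts sequencing adapters, and open sites outside promoters are often enhancers. Gene deserts commonly flank genes that control development, and some hold enhancers that reach their target over long distances, past nearer genes. In blood cells, Myc is known to be driven by a distal enhancer cluster far downstream of it. A flanking gene is named here as an address on the chromosome, since the peak lists do not show which gene a region acts on.

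The cells were leukemic granulocyte-macrophage progenitors (L-GMPs), sorted as lineage-negative, Sca-1-negative cells with c-Kit, CD16/32 and CD34 on their surface, from mice whose acute myeloid leukemia was driven by the MLL-AF9 fusion, which all groups carried. FL 1 and FL 2 were Dekfl/fl without a Cre, and KO 1 and KO 2 were Dekfl/fl with MX1-Cre, which is induced by interferon; these 4 libraries form the Mx1-Cre set. FL 3 was Dek+/+, KO 3 was Dekfl/fl;Tie2-Cre, which is active in endothelial and blood cells, and both 4S-A libraries were Dek-Ser306A/Ser308A/Ser311A/Ser312A, with serines of DEK changed to alanine; these 4 form the Tie2-Cre set. DEK is a chromatin-bound protein that binds DNA and histones. Nothing in the labels tells whether 2 libraries of a group are separate animals, so p-values measure the spread between these libraries, which may be technical. The 4S-A mutation exists in the Tie2-Cre set only, and no library of that set is Dekfl/fl without Cre.

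Some desert regions cover the start of a long noncoding RNA (lncRNA) gene, which the distance rule does not count. Of the 9083 regions, 147 touched the promoter window (250 bases before to 50 after the start) of 147 noncoding genes, all lncRNAs, and 53 of these regions (36.1%) had a peak in all 8 libraries. The windows of the 3 strongest such regions, and that of Firre, an X-linked lncRNA that lies inside the X-chromosome cluster described further on, are shown 5′ to 3′ along the gene, from RefSeq on GRCm38.p6. Capitals mark matches on either strand to the ETS letters GGAAGT, the RUNX letters TGTGGT, the AP-1 letters TGANTCA, the C/EBP letters TTGCNNAA, the GATA letters AGATAA or the PBX-HOX letters TGATNNAT, some of which can overlap.
Gm45805 (chr8:126758304-126758603, minus strand): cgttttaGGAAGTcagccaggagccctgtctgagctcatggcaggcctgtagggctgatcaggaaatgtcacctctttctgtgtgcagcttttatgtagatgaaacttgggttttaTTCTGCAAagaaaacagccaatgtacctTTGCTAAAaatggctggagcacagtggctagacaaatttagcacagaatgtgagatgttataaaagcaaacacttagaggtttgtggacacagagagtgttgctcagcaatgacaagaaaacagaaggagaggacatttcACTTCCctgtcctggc
Gm26901 (chr1:7398047-7398346, minus strand): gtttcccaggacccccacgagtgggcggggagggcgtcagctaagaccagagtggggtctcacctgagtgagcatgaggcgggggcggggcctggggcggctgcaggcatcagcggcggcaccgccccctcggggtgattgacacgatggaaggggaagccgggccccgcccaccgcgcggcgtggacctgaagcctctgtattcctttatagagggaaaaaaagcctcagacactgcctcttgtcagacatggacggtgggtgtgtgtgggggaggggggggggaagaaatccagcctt
5031425F14Rik (chr2:166447201-166447500, plus strand): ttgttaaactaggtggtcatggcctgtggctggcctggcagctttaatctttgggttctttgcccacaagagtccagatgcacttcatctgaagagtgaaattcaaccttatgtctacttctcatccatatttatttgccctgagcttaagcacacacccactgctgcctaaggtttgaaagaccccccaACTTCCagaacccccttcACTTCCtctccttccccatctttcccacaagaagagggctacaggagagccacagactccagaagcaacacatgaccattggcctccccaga
Firre (chrX:50635272-50635571, minus strand): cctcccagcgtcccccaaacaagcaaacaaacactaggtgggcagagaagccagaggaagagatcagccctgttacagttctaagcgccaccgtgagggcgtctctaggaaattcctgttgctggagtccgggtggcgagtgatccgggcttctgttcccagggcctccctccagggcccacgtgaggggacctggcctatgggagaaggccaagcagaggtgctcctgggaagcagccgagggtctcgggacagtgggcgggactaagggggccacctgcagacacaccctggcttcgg

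The Gm45805 window held 2 ETS and 2 C/EBP matches, the 5031425F14Rik window held 2 ETS matches, and the Gm26901 and Firre windows held none of the 6. The ETS letters stood in 23.8% of all 32851 promoter windows of this length and in 45 of the 158 windows that touched a desert region (28.5%). For C/EBP the shares were 10.8% and 15.8%, for RUNX 16.8% and 25.9%, for AP-1 7.81% and 11.4%, for GATA 11.2% and 13.9%, and for PBX-HOX 8.85% and 10.1%. A match is a description of these letters and not a bound site. The sequence of the other regions was not analysed here.

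The largest cluster of desert regions begins beside a pair of microRNA genes, Mir29a and Mir29b-1. The summit of region chr6:31065369-31066756 lay 2911 bp from the Mir29a hairpin and 2565 bp from the Mir29b-1 hairpin. This region had a peak in all 8 libraries with a mean percentile of 87.1. The 3p products of both share 1 seed (bases 2 to 8, in capitals), while their 5p products have different seeds; sequences are from RefSeq.
mmu-miR-29a-3p: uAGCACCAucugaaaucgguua
mmu-miR-29b-3p: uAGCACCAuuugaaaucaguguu
mmu-miR-29a-5p: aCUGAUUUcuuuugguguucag
mmu-miR-29b-1-5p: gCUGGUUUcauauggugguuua

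The lists held between 51510 and 104605 peaks on the chromosomes used, fewer in the Mx1-Cre set (51510 to 74026) than in the Tie2-Cre set (91586 to 104605). Read depth is unknown, and list length is the only sign of it. All 10 L-GMP markers, among them Kit, Mpo, Cebpa and Hoxa9, had a region at the gene in every library; so did 3 or 4 of 4 B cell, 2 or 3 of 4 T cell, 2 or 3 of 4 erythroid and 3 or 4 of 4 endothelial markers. Every library had a peak over the Dek start, ranking from 65.7 to 85.4 in KO and 75.6 to 82.2 in FL; an open promoter does not check the deletion.

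Open chromatin thinned out with distance from genes. The genome more than 100 kb from a protein-coding gene held 12.2 union regions per Mb, against 51.2 per Mb at 10 to 100 kb. Within the deserts the density was 23.3 per Mb at 100 to 200 kb, 10.5 at 200 to 500 kb, 4.04 at 500 to 1000 kb and 2.74 beyond 1000 kb. The median desert region lay 180 kb from the nearest protein-coding gene. Of 1537 gaps of more than 200 kb between neighbouring protein-coding genes, 1061 held at least 1 desert region, and 84 regions lay before the first or after the last gene of a chromosome. Gaps and densities take the listed gene positions as they stand. They include the 3.12 Mb from LOC115489419 to Selenop on chromosome 15, which held no desert region. Whether such stretches hold known sequence was not tested.

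**Figure D1:**
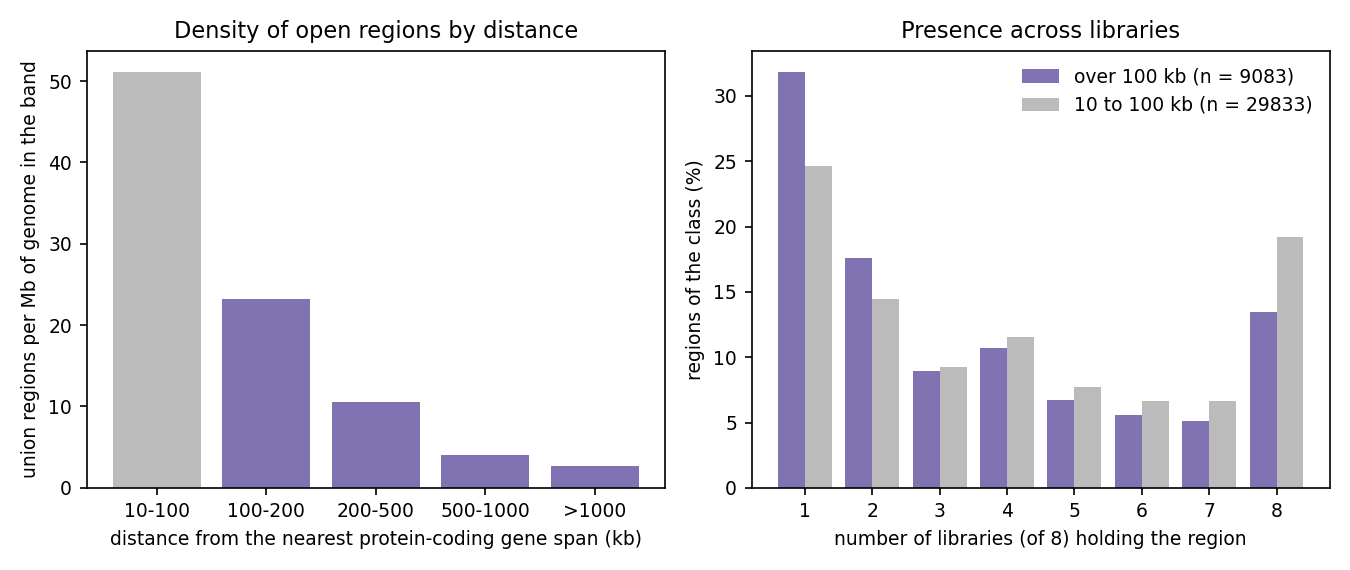
Left, union regions per Mb of genome (vertical axis) in bands of distance from the nearest protein-coding gene span (kb); density falls from 51.2 per Mb at 10 to 100 kb to 2.74 beyond 1000 kb. Right, percent of regions of each class held by 1 to 8 libraries; desert regions exceed intergenic regions nearer to genes among those held by 1 library and fall below them among those held by 8.

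The longest gaps held few regions. The 4.54 Mb between Pcdh20 and Pcdh9, protocadherin genes on chromosome 14, held 6 desert regions, and the 3.97 Mb between Slc39a10 and Tmeff2 on chromosome 1 held 1. At the other end, the gap between Adam6a and Zfp386 on chromosome 12 held 146; 135 desert regions of chromosome 12 lay among V gene segments of the immunoglobulin heavy chain locus, which the rule does not count as protein-coding genes. The gap between Thap1 and Zfp703 held 90, that between Cd83 and Jarid2 held 82, that between Nmbr and Cited2 held 81 and that between Runx1 and Setd4 held 77. By chromosome, density was highest on chromosome 13 (23.8 per Mb of desert) and chromosome 10 (21.3) and lowest on X (4.84).

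Desert regions recurred in fewer libraries than other regions. All 8 libraries held 1222 of them, or 13.5% (exact 95% binomial interval 12.8 to 14.2%), against 19.2% of regions at 10 to 100 kb and 24.1% of all regions. A single library held 2894 of them (31.9%), against 24.6% at 10 to 100 kb. The share held by all 8 fell with distance, from 15.1% at 100 to 200 kb to 9.85% beyond 1000 kb. Of a library's own desert regions, on average 34.7% ± 12.6 (SD, n = 8) were held by all 8 libraries, against 42.0% ± 14.8 of its regions at 10 to 100 kb. The regions held by all 8 are the same in every library, so these shares restate the union counts and were not tested.

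Strength was measured as a percentile, the rank of a peak's −log10 q within its own list, since the deposited values were not scaled between libraries. The median percentile of desert regions was 39.7, 36.2 and 43.3 in FL 1 to 3, 41.5, 42.2 and 44.1 in KO 1 to 3, and 44.3 and 45.5 in the 4S-A libraries. In regions at 10 to 100 kb it was 44.0, 43.4 and 46.3 in FL, 44.8, 46.4 and 46.4 in KO, and 46.7 and 47.2 in 4S-A. The desert median was the lower in 8 of 8 libraries, with differences of −7.14 to −1.65 percentile points (mean −3.54, exact sign-flip permutation test, two-sided p = 0.00781, the smallest that 8 libraries allow). After Benjamini-Hochberg adjustment over the 7 exact tests run on shares and classes, this did not pass (adjusted p = 0.0547). Ranked by fold enrichment instead of q the difference was −0.95 points (exact p = 0.383) and did not pass before adjustment. Among regions held by all 8 libraries it was −0.77 points and negative in 5 of 8 (exact p = 0.203, adjusted p = 0.474). The median width of desert peaks differed from that at 10 to 100 kb by −5.19 bp on average (negative in 7 of 8 libraries, exact p = 0.0234, adjusted p = 0.0820, which does not pass).

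The strongest desert regions held by all 8 libraries included several that were close to the top of every list. Region chr3:5860268-5860900, between Pex2 and 1700008P02Rik, ranked at a percentile of at least 99.9964 in every list, with a fold enrichment of 21.9 to 23.1. Region chr2:98666207-98667370, between Lrrc4c and Iftap, lay 1035 kb from the nearer gene and ranked between 99.1 and 100. Then came chr12:3109786-3110205 (137 kb from Rab10), chr8:20122062-20123003 (between 9530057J20Rik and Gm15319), chr9:2999975-3001582 (before Alkbh8, the first protein-coding gene of the chromosome) and chr6:3201264-3201713 (171 kb from Samd9l). Their mean percentiles were 99.7, 99.5, 99.1 and 97.9. On the other side of the chr12 and chr6 regions the annotation lists LOC115489384 at 3047 kb and LOC108168698 at 1808 kb. Whether those LOC genes are placed correctly was not tested. No list of sites that collect excess reads was used, and whether these regions lie in repeats was not tested.

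The others of the 12 strongest lay 104 to 263 kb from the nearer protein-coding gene. Region chr15:68362023-68364018, 1996 bp wide, lay 104 kb from Zfat, a zinc-finger gene, with Khdrbs3 on its other side; its percentiles were 99.1, 99.2 and 97.8 in FL, 99.4, 98.8 and 98.5 in KO, and 98.0 and 99.0 in 4S-A. Region chr8:126757634-126758656, which covers the Gm45805 start shown above, lay 164 kb from the corepressor gene Irf2bp2 and 173 kb from Tomm20. It stood at 96.6, 95.8 and 98.6 in FL, 98.6, 99.1 and 97.7 in KO, and 98.9 and 98.0 in 4S-A. In both regions the 3 groups overlapped. Region chr9:60991297-60992062 lay 111 kb from Uaca and 381 kb from Tle3, a Groucho corepressor gene (mean percentile 97.8). The remaining 3 lay farther from their second neighbour: chr9:90430591-90431365 lay 160 kb from Tbc1d2b and 927 kb from Zic1 (97.1), chr18:68691976-68692402 lay 263 kb from Mc2r and 651 kb from Tcf4, an E-protein gene (97.0), and chr13:4771124-4772020 lay 163 kb from Akr1e1 and 1090 kb from Klf6, a zinc-finger gene (96.6).

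The region farthest from any protein-coding gene and held by all 8 libraries was chr1:102628107-102628422, 2138 kb from Cntnap5b and 2140 kb from Cdh20. It ranked in the upper part of every list, from 56.0 in KO 1 to 79.0 in FL 2. Next were chr5:59996501-59997155 (88.2 to 97.1) and chr5:59845649-59846100 (4.32 to 64.8), both between Pcdh7 and G6pd2. At the threshold, the regions just inside and held by all 8 lay 100.254, 100.434 and 100.456 kb from a gene, with mean percentiles of 94.6, 67.8 and 57.5. Those just outside lay at 99.95, 99.945 and 99.905 kb, with mean percentiles of 68.4, 56.0 and 52.5.

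Desert regions came in groups. With near neighbours joined, the widest gap so joined being 12490 bp, 904 clusters of 3 or more regions held 5055 of the 9083 (55.7%), 85 clusters had 10 or more, and 2480 regions (27.3%) stood alone. At 10 to 100 kb, 71.9% of regions fell in such runs. The regions of clusters were held by all 8 libraries in 17.8% of cases and those of clusters of 10 or more in 24.4%, against 6.21% of single ones, and their median strength was 32.1 against 16.9.

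The largest cluster, chr6:31065369-31240615, held 42 regions over 175 kb between Klf14 and Mkln1, the muskelin gene, with Mir29a and Mir29b-1 at its edge. FL 1 to 3 held 20, 20 and 33 of them, KO 1 to 3 held 19, 30 and 29, and the 4S-A libraries 30 and 25. Cluster chr13:44468997-44608167, between the activation antigen gene Cd83 and Jarid2, whose product works with Polycomb repressive complex 2, held 41: 17, 14 and 31 in FL, 15, 23 and 33 in KO, and 38 and 37 in 4S-A. FL and KO overlapped in both clusters, and FL 1, FL 2 and KO 1, the libraries with the shortest lists, had the lowest counts.

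Cluster chr12:25197242-25352567 held 36 regions between Id2, an inhibitor of E proteins, and Rnf144a, 13 of them in all 8 libraries. Cluster chr2:128359064-128487538 held 33 between Bcl2l11, which encodes the pro-apoptotic protein BIM, and Spdye4c. Cluster chr12:54385361-54528380 held 31 between Egln3 and Sptssa. In all 3 the FL and KO counts overlapped as well, with 8 to 30 regions held in FL and 7 to 31 in KO.

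Desert regions were also sorted by their flanking genes. Over all protein-coding genes, 1895 of 21631 flanked a desert region. Of 56 blood and leukemia regulators listed, 28 did, and 799 regions (8.80% of the 9083) had at least 1 of them as a neighbour. Of these regions 18.6% were held by all 8 libraries. For 104 developmental transcription factors the same counts were 64 genes, 602 regions and 9.63%, and for 95 neuronal adhesion and synapse genes they were 69 genes, 646 regions and 7.12%, beside 13.5% of all desert regions. The lists were tested neither against each other nor against all genes.

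Runx1, a master regulator of blood stem cells, had 77 desert regions beside it, all in the gap to Setd4, of which 24, 23 and 42 were held in FL 1 to 3, 23, 40 and 51 in KO 1 to 3, and 56 and 47 in 4S-A. The strongest, chr16:93028425-93029127, lay 203 kb from Runx1 and had percentiles of 77.2 to 90.9; it was singled out as the strongest beside this gene, after its values were seen. Zeb2, a repressor needed in blood cell maturation, had 73, Myc and Id2 had 61 each, Lmo4 54 and Tcf4 48. Meis1 and Pbx3, cofactors of HOX proteins that MLL fusions are known to raise, had 14 and 2. Beside Meis1, FL 1 to 3 held 2, 4 and 7, KO 1 to 3 held 0, 1 and 1, and both 4S-A libraries 7: the KO counts lay below the FL counts in every library. This gene was singled out after its values were seen, and its counts are small. The share of all flanking genes with this order is not given here, nor are its counts at equal list length. Among gaps with 15 or more desert regions, counted further on, KO lay below FL in 0 of 175. Meis1, with 14 regions, has too few to enter that count. Beside Kit, the receptor used in the sort, the 25 regions were held as 7, 7 and 18 in FL and 7, 9 and 19 in KO, which overlapped.

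Myc encodes a transcription factor that drives growth and that MLL-AF9 leukemia needs, and its desert extends to Gsdmc. That gap held 53 desert regions, 12 of them in all 8 libraries. They fell into a part under 1500 kb beyond Myc, with 30 regions, and a distal part at 1507 to 1682 kb, with 23 regions, of which 7 were in all 8 libraries. The strongest distal region, chr15:63610961-63611567, lay 1621 kb beyond Myc and ranked at 77.9, 86.3 and 85.7 in FL, 84.7, 81.1 and 82.5 in KO, and 85.6 and 86.2 in 4S-A. At chr15:63647673-63648851 the percentiles were 75.0, 78.2 and 81.0 in FL, 95.1, 95.05 and 80.9 in KO, and 78.4 and 76.2 in 4S-A. At the first region FL overlapped both other groups, while both 4S-A values lay above all 3 KO values. At the second, FL again overlapped both, both 4S-A values lay below all 3 KO values, and KO 1 and KO 2 were the highest. Margins were narrow, with KO 1 at 84.7 and 4S-A 1 at 85.6 in the first, and KO 3 at 80.9 and 4S-A 1 at 78.4 in the second. How often 4S-A and KO separate in this way over all shared regions is not given here. No difference between them is therefore read from these orders. These 2 regions were singled out after their values were seen. Of the distal 23, FL held 8, 8 and 14, KO 10, 9 and 16, and 4S-A 18 and 18.

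Of the 10 strongest shared regions with a blood regulator as neighbour, the first is the region beside Tcf4 given above. Region chr1:128712496-128713341, 121 kb from Cxcr4, the chemokine receptor that keeps stem cells in the marrow, ranked from 89.8 to 98.8, and chr1:128704844-128705775, 113 kb from the same gene, had a mean percentile of 89.3. Beside Zeb2, chr2:45261703-45262597 at 145 kb ranked from 89.5 to 95.6, and chr2:46370683-46371451 at 1254 kb and chr2:45279129-45280635 at 162 kb had mean percentiles of 91.8 and 86.6. Region chr12:25388930-25389811, 293 kb from Id2, stood at 94.97, 95.6 and 93.7 in FL, 96.0, 99.6 and 90.2 in KO, and 86.8 and 84.9 in 4S-A. Both 4S-A values lay below the other 6, but the share of all shared regions that separate in this way is not given here. Region chr3:143147405-143148024 lay 1041 kb from Lmo4, a LIM-domain protein gene, and 107 kb from 4930519L02Rik, with a mean percentile of 90.2. Region chr4:95230123-95231205, 178 kb from Jun, ranked from 68.3 in FL 2 to 97.4 in 4S-A 1, and chr5:3152008-3152776, 189 kb from the cell cycle kinase gene Cdk6, from 81.6 to 93.1. In the limma test of ranks described further on, none of these 10 regions was among the 10 desert regions with the smallest p in either contrast.

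The desert share of open chromatin did not separate FL from KO. Desert regions made up 4.74, 5.23 and 5.29% of the regions of FL 1 to 3 and 4.87, 5.34 and 4.98% of those of KO 1 to 3; the groups overlapped. The difference was −0.023 percentage points (5.09 ± 0.30 in FL and 5.06 ± 0.25 in KO, SD, n = 3; exact permutation test, two-sided p = 1, adjusted p = 1; 0.1 is the smallest this design allows). Within the Mx1-Cre set it was +0.121 points (exact p = 0.667, smallest possible 0.33), and in the Tie2-Cre set, with 1 library a group, −0.311. The sign of the pooled value is not stable: it turned positive at a 50 kb threshold (0.102) and with stricter peaks (0.173).

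Both 4S-A libraries gave deserts the largest share of the 8. Desert regions made up 5.80 and 5.69% of the regions of 4S-A 1 and 2, above FL 3 (5.29%) and KO 3 (4.98%) of the same set and above the Mx1-Cre set. The difference from FL 3 and KO 3 was +0.607 points (exact permutation test, two-sided p = 0.33, the smallest that 2 against 2 allows; adjusted p = 0.583). With every list cut to its 51510 strongest peaks, the shares were 5.09 and 5.12% in 4S-A, 4.56% in FL 3 and 4.35% in KO 3, and 4.66 to 4.89% in the Mx1-Cre set, so the order held at equal length. FL 3 and KO 3 differ in genotype from each other, and 4S-A differs from both.

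**Figure D2:**
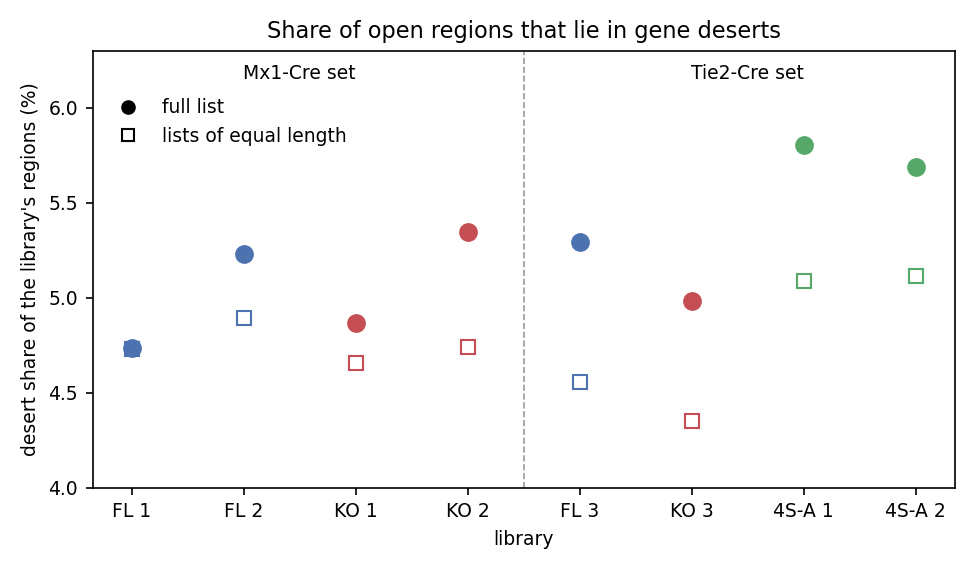
Percent of each library's union regions that are desert regions (vertical axis, from 4 to 6.3%), for the 8 libraries by set; filled circles are full lists, open squares lists of equal length, blue FL, red KO and green 4S-A. Both 4S-A libraries lie above the other 6 on either measure, while FL and KO overlap.

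By presence in any library of a group, 3667 desert regions (40.4%) had a peak in FL, KO and 4S-A alike, against 54.8% of all regions. Regions found in 4S-A alone numbered 1760 (19.4%, against 14.1% of all regions), those in FL alone 1229 (13.5%, against 8.24%) and those in KO alone 975 (10.7%, against 8.42%). The groups have unequal numbers of libraries and lists of unequal length.

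Few desert regions separated KO from FL. Lost stands for a peak in each control list and none in the compared lists, gained for the opposite. FL 1 to 3 shared 1539 desert regions, and 8 of these (0.520%) were lost in KO, where the background over all regions was 0.214%. KO 1 to 3 shared 1929, of which 30 (1.56%) were gained, with a background of 0.754%. With every list cut to equal length, 11 were lost and 10 gained, so the excess of gains was not seen at that length. Leaving out FL 3 raised the gained count to 278 and leaving out KO 3 raised it to 134; leaving out KO 1 gave 96. The lost count rose to between 21 and 38 without FL 1, FL 2, FL 3, KO 2 or KO 3 in turn.

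The strongest of the 8 lost was chr16:79878047-79878476 between Tmprss15 and Ncam2, 787 kb from the nearer gene, with percentiles of 24.98, 69.9 and 67.9 in FL and 38.2 and 37.0 in 4S-A. It was followed by regions between Cyld and Sall1 (chr8:88856908-88857444), Veph1 and Shox2 (chr3:66570401-66570683), Axin2 and Rgs9 (chr11:109064275-109064676), and Eea1 and Btg1 (chr10:96351379-96351697), with mean percentiles of 27.4 to 29.0. These are low ranks, near the weaker end of the lists. The strongest gained region was chr2:137898121-137899021, 358 kb from Btbd3 with the Notch ligand gene Jag1 on its other side, at 64.4, 77.5 and 64.9 in KO and 88.2 and 76.2 in 4S-A; it had no peak in any FL library. The next were between Map3k1 and Ankrd55 (chr13:111977763-111978282, mean percentile 52.4), Ctps2 and Grpr (chrX:163301075-163301411, 52.4), Ccdc59 and Ppfia2 (chr10:106038051-106038390, 43.4), and Zswim2 and Calcrl (chr2:84113467-84113999, 40.5).

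Within the sets the counts were larger, where fewer libraries enter the rule. In the Mx1-Cre set 61 of 1612 desert regions were lost (3.78%, background 2.07%) and 458 of 2221 gained (20.6%, background 13.5%); both KO lists of that set are longer than both FL lists. Between FL 3 and KO 3, a comparison of 1 library with 1, 1056 of 4742 were lost (22.3%, background 14.4%) and 824 of 4510 gained (18.3%, background 15.3%). The desert share was above the background in each of these 4 counts.

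The 4S-A libraries gained more desert regions than they lost. Of 4739 desert regions held by both, 1021 (21.5%) had no peak in FL 3 or KO 3, where the background over all regions was 10.8% and the share at 10 to 100 kb was 12.53%. Of 3686 held by FL 3 and KO 3, 273 (7.41%) were lost, with a background of 5.16%. With lists of equal length the counts were 531 and 194. Against all 6 other libraries, 923 of 4739 were gained (19.5%, background 9.75%) and 47 of 1312 lost (3.58%, background 1.36%). Without 4S-A 2 the gained count was 1688, and without FL 3, KO 3 or 4S-A 1 the lost count was 599, 838 or 506. The median strength of the gained regions was 30.3, beside 26.9 over all desert regions and 32.2 over all regions. These sets are not alike, since a gained region has a peak in both 4S-A lists by definition. Of all desert regions, 31.9% were held by 1 library, with a median strength of 8.66.

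The strongest gained regions ranked high in both 4S-A lists. Region chr2:83526586-83527260, 118 kb from Zc3h15 with Fsip2 on its other side, ranked at 93.8 and 94.2 in the 4S-A lists and had no peak in the other 6. Region chr13:82072279-82072846, between Cetn3 and Mef2c, a transcription factor gene of lymphoid and myeloid cells, ranked at 91.8 and 92.1. Region chr5:111799617-111800770, 1154 bp wide and 343 kb from the leukemia gene Mn1, ranked at 90.2 and 92.4. No other library had a peak at any of these 3 regions. The next strongest lay between Fut10 and Nrg1 (chr8:31372994-31373736, 92.6 and 89.1) and between Pgrmc2 and Jade1 (chr3:41202712-41203403, 88.2 and 89.5).

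The 5 strongest lost regions were present in all 6 libraries outside 4S-A. Region chr6:66274732-66275205, between 4930544G11Rik and Mad2l1, stood at 82.2, 78.8 and 52.9 in FL and 77.8, 87.2 and 55.1 in KO. Region chr12:92740821-92741191, between Sel1l and Gm40892, stood at 69.6, 74.4 and 80.0 in FL and 80.2, 89.2 and 35.8 in KO. The others lay between Lrrtm4 and Gcfc2 (chr6:81447571-81448269, mean percentile 70.9), Stpg2 and Pdha2 (chr3:139841932-139842418, 68.1), and Slc30a8 and Med30 (chr15:52565351-52565952, 67.5). By list of flanking genes, 86 of the 1021 gained (8.42%) lay beside a blood and leukemia regulator, against 10.1% of the desert regions held by both 4S-A libraries, and 34 of the 273 lost (12.45%), against 10.5% of those held by FL 3 and KO 3. Beside a developmental transcription factor lay 64 gained (6.27%, against 5.40%) and 11 lost (4.03%, against 5.26%). Beside a neuronal gene lay 97 gained (9.50%, against 6.08%) and 15 lost (5.49%, against 5.24%). These shares were not tested.

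The gains were also counted gap by gap. Among 175 gaps with 15 or more desert regions, both 4S-A libraries held more of them than FL 3 and KO 3 in 79 (45.1%) and fewer in 16 (9.14%). Among 426 gaps with 15 or more regions at 10 to 100 kb the same rule gave 119 higher (27.9%) and 39 lower (9.15%). At equal list length the desert counts were 66 and 24. KO and FL separated in 0 of the 175 gaps, in either direction, and in 0 of the 426. Gaps of that size, and those named next, were chosen after the values were seen.

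Between Mctp2 and Rgma on chromosome 7, each 4S-A library held 14 of 19 desert regions, FL 1 to 3 held 2, 3 and 0, and all KO libraries 0. Its strongest region, chr7:73113220-73113793, 262 kb from Rgma, ranked at 80.3 and 79.7 in 4S-A. Between Celf2 and Gata3, a T cell and lymphoid progenitor factor, 4S-A held 14 and 13 of 18, FL 1, 1 and 1, and KO 0, 3 and 0. Between Sox2, a stem cell factor, and Atp11b the counts were 9 and 7 in 4S-A, 3, 4 and 1 in FL, and 1, 0 and 0 in KO. In all 3 gaps the 4S-A libraries lay above the other 6 in the full lists and no region was held by all 8. At equal list length 4S-A held 7 and 7 between Mctp2 and Rgma (0 to 3 in the others) and 6 and 7 between Celf2 and Gata3 (0 or 1), still above the other 6. Between Sox2 and Atp11b the counts were 3 and 4, which overlapped FL 1 at 3.

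Between Cetn3 and Mef2c, 4S-A held 35 and 25 of 38 regions, FL 2, 4 and 8, and KO 4, 6 and 11. Between Jag1 and Btbd3 the counts of 26 were 18 and 17 in 4S-A, 0, 2 and 5 in FL, and 4, 4 and 4 in KO. Between Mn1 and Cryba4, where 20 regions lie, they were 8 and 8 in 4S-A, 0, 2 and 1 in FL, and 7, 6 and 1 in KO. At equal list length 4S-A held 13 and 14 between Cetn3 and Mef2c (2 to 5 in the others) and 10 and 11 between Jag1 and Btbd3 (0 to 4). Between Mn1 and Cryba4 it held 4 and 3, which overlapped KO 1 at 3. The opposite order stood between Triqk and Runx1t1, the ETO gene of leukemia fusions: 4S-A held 2 and 1 of 18 regions, FL 6, 8 and 14, and KO 7, 11 and 10, and at equal length 4S-A held 1 and 0 and the others 3 to 8. Its strongest region, chr4:13217605-13218214, had a peak in the 6 other libraries at 50.8 to 76.7 and none in 4S-A.

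**Figure D3:**
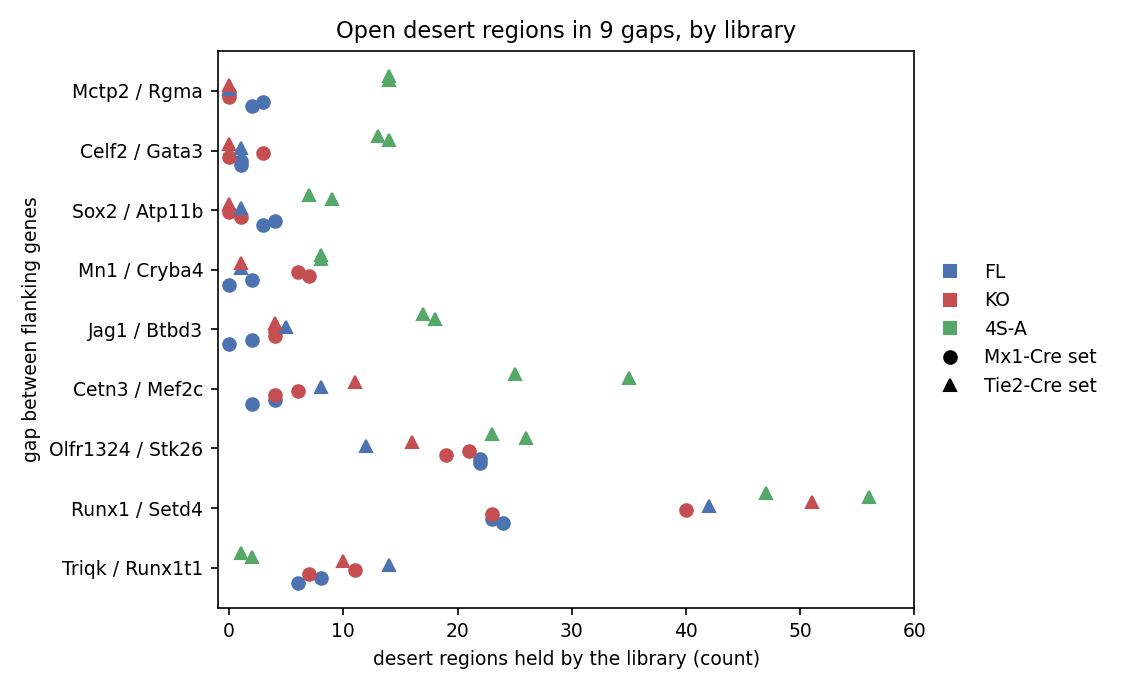
Number of desert regions that each library holds (horizontal axis) in 9 gaps between neighbouring protein-coding genes (vertical axis); circles are the Mx1-Cre set and triangles the Tie2-Cre set, in blue for FL, red for KO and green for 4S-A. Counts are from the full lists. The 4S-A triangles lie to the right of all other points in the upper 6 gaps and to the left of them between Triqk and Runx1t1.

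A cluster on the X chromosome separated the libraries in another way. Cluster chrX:50537158-50643457, between Olfr1324 and Stk26, held 25 regions, most of them within Firre (chrX:50563120-50635321, 72.2 kb), a lncRNA gene known for its many binding sites of the chromatin organiser CTCF. FL 1 to 3 held 21, 22 and 10, KO 1 to 3 held 19, 20 and 13, and the 4S-A libraries 23 and 21. FL 3 and KO 3 were the lowest, although their lists are longer than those of the Mx1-Cre set. The region over the Firre start shown above was present in all, at 73.1 to 90.4.

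That pattern was rare elsewhere. Of 1255 desert regions held by the 6 libraries other than FL 3 and KO 3, 11 (0.876%) were absent from both, against 34 of 33519 regions overall (0.101%), and 8 of the 11 lay in this cluster. They included chrX:50566393-50566945, which ranked at 68.7 (FL 1), 86.8 (FL 2), 72.7 (KO 1), 80.4 (KO 2), 82.4 (4S-A 1) and 79.5 (4S-A 2). The lists differed on Y as well, where the Mx1-Cre set had 11 to 16 peaks and all 4 libraries of the Tie2-Cre set 41 to 43. These Y counts are not scaled for list length. On the chromosomes used, the lists held 51510 to 74026 peaks in the Mx1-Cre set and 91586 to 104605 in the Tie2-Cre set. By these raw counts the 4S-A libraries were like FL 3 and KO 3 on Y, and like the Mx1-Cre set in this cluster. The part of the Y difference in the Firre values was not tested. The cluster was singled out after its values were seen.

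Presence is all or none, so ranks were also compared where all 8 libraries had a peak. The 33321 regions held by all 8 were ranked again within each library, and limma was fitted with group and set. For KO against FL, limma called 0 of 1222 desert regions and 0 of 33321 overall (background 0%) at a Benjamini-Hochberg adjusted p of 0.05; the smallest adjusted p of a desert region was 0.204. At an unadjusted p under 0.05 there were 179 (14.6%, background 10.1%), 89 higher and 90 lower in KO. Without FL 3 there were 8 calls among desert regions (135 of 33466 overall). Without KO 3 there were 9 (137 of 33468 overall), so the count of 0 rests on these libraries. In simulated data for KO against FL, limma called 86 of 100 planted changes of 40 points but 16 of 100 of 20 points. The count of 0 therefore cannot exclude changes of 20 points. The smallest p belonged to chr15:31964771-31965969, between Atpsckmt and Tas2r119, which ranked at 68.2, 65.5 and 35.2 in FL, 18.4, 5.90 and 5.78 in KO, and 63.6 and 56.9 in 4S-A. FL and KO did not overlap there, but the region was chosen by its small p in this same contrast. It failed the correction (difference −46.3 points, SE 8.11, limma adjusted p = 0.204). The share of all shared regions at which FL and KO do not overlap is not given here. The next 4 lay between Has2 and Slc22a22 (chr15:57036931-57037671, −44.0 points), Defb7 and 4930467E23Rik (chr8:19601375-19602018, −39.9), Npvf and Gm38821 (chr6:50973187-50974376, −39.9), and Kcnt2 and Cdc73 (chr1:143464779-143465256, +28.9), with limma adjusted p from 0.222 to 0.250.

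For 4S-A against FL, limma called 7 desert regions, 6 higher and 1 lower in 4S-A, where the background was 57 of 33321 (0.171%; 0.105% higher and 0.0660% lower). At an unadjusted p there were 203 (16.6%, background 10.5%). Region chr8:49946704-49947636, 424 kb from Tenm3 with Aga on its other side, ranked at 81.1 and 82.3 in 4S-A, 14.2 in FL 3, 3.75 in KO 3 and 48.7 to 74.5 in the Mx1-Cre set (difference with set in the model +77.7 points, SE 10.2, adjusted p = 0.0143). Region chr3:130873305-130874355, 143 kb from Rpl34 in the gap to Lef1, a Wnt pathway factor, ranked at 90.7 and 84.9 in 4S-A, 21.0 in FL 3, 21.8 in KO 3 and 38.7 to 62.5 in the Mx1-Cre set (+70.7, SE 9.62, adjusted p = 0.0143). FL 3 and KO 3 were the lowest libraries in both, and the differences in the model include its estimate of the difference between sets.

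Region chr4:53269609-53270578, 110 kb from the cholesterol transporter gene Abca1, ranked at 76.9 and 86.7 in 4S-A and 4.05 to 36.7 in the other 6 (+76.8, SE 10.8, adjusted p = 0.0160). Region chr6:31253137-31253828, next to the Klf14 to Mkln1 cluster, ranked at 64.4 and 78.4 in 4S-A and 1.91 to 37.7 in the others (+66.5, SE 9.85, adjusted p = 0.0236). Region chr16:84603460-84604354, between Ncam2 and Mrpl39, ranked at 49.1 and 52.8 against 1.03 to 23.3 (+51.4, SE 8.29, adjusted p = 0.0288). In these 3 the 4S-A libraries lay above all others. At chr17:83990362-83991162, 142 kb from Haao in the gap to Zfp36l2, an mRNA decay factor of blood stem cells, the 4S-A values of 82.8 and 84.9 overlapped those of KO 1 and KO 2 (83.5 and 83.6). The only lower call was chr13:108492770-108493305, 104 kb from Depdc1b in the gap to Pde4d, at 3.61 and 1.77 in 4S-A, 66.3 in FL 3, 38.7 in KO 3 and 7.92 to 37.0 in the Mx1-Cre set (−59.1, SE 10.0, adjusted p = 0.0371). Ranked by fold enrichment, limma called 2 desert regions, 0 higher and 2 lower. Over all 33321 regions it then called 17, 1 higher and 16 lower, so the balance of directions turned over all regions and not only in deserts. Over all regions, leaving out KO 3 gave 123 calls of 33468. The count of 7 fell to 0 without the set term, and to 0 without KO 1, KO 2, 4S-A 1 or 4S-A 2; it was 13 without KO 3.

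**Figure D4:**
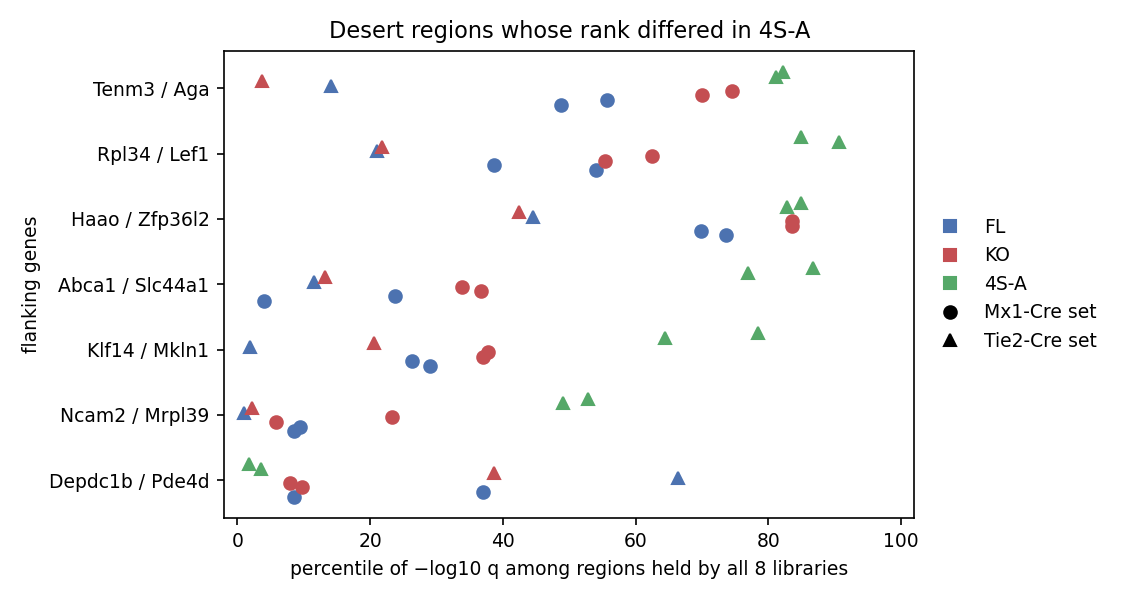
Percentile of −log10 q among the 33321 regions held by all 8 libraries (horizontal axis) for the 7 desert regions that limma called in 4S-A against FL, named by flanking genes; each point is 1 library, circles for the Mx1-Cre set and triangles for the Tie2-Cre set, blue FL, red KO, green 4S-A. The 4S-A points lie above FL 3 and KO 3 in the upper 6 rows and below them in the lowest.

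Many desert regions were not far from noncoding genes. Inside lncRNA spans lay 1922 (21.2%), against 19.7% of regions at 10 to 100 kb, and these were held by all 8 libraries in 17.2% of cases, against 12.4% of desert regions outside them. Only 1014 (11.2%) lay over 100 kb from an annotated gene of any kind. Within 10 kb of a microRNA hairpin there were 38. Among the microRNAs with a near region were Mir100, Mir221, Mir222 and Mir205. The region with its summit 5707 bp from Mir100 was held by 4 libraries, while those nearest to Mir222, Mir221 and Mir205 were held by 2, 1 and 1.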

How the data were processed

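ATAC-seq of sorted L-GMPs was analysed in 8 libraries: 3 FL, 3 KO and 2 4S-A. The tools named, per the submitters' processing notes, are Bowtie2 2.2.9, Trim Galore 0.4.4, MACS2, Picard and featureCounts, and the assembly is mm10; parameters are not given in the sources used here. The authors deposited a separate peak list for each library. For each peak the authors deposited a score, a fold enrichment over local background (a ratio), a −log10 p and a −log10 q. None was scaled between libraries, so −log10 q served only to rank peaks within a list.

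Peaks on chromosomes 1 to 19 and X were kept (1234 on Y and other sequences, over all 8 lists, were left out), and lists were merged by 1 bp overlap. A region's strength is its mean percentile in the libraries that hold it. Gene spans (21631 protein-coding genes) and sequences came from RefSeq, GRCm38.p6, the assembly also called mm10. The members, gene lists and tests were chosen with earlier results of these data known. Shares were compared by exact permutation tests over libraries and class differences by exact sign-flip tests. Ranks were compared by limma 3.58.1 (R 4.3.3) with set as covariate, tested on simulated data. There, changes between KO and FL were planted at regions in the middle of the ranks. Limma called 86 of 100 changes of 40 points, 16 of 100 changes of 20 points and 7 of 33121 unchanged regions. Python 3.11.15 with pandas 2.3.3 and SciPy 1.17.1 was used. Named regions followed a rule: the 12 strongest, the 5 strongest lost and gained per contrast, the 5 largest clusters, the 3 farthest, the 3 on each side of the threshold, the 5 smallest p per rank contrast, and the 10 strongest beside a blood regulator. Regions outside it were chosen after their values were seen: the other 2 called in rank, and those at noncoding starts and microRNAs, beside Runx1 and Myc, in the gaps and at Firre.

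Same-numbered FL and KO libraries deviated together over the shared regions (r = 0.241, 0.303 and 0.553 for numbers 1 to 3), but FL 1 with KO 2 (0.275) and FL 2 with KO 1 (0.266) did so as well; the numbers come from the sample titles. Alternatives were other distance thresholds, a −log10 q of at least 5, lists of equal length, a wider minimum overlap, other cluster gaps, fold enrichment ranks, no covariate, a replicate block and leaving out each library; distance to any gene and leaving out V segments were added after seeing the data. Read depth is unknown, so no counting interval is given for a peak.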

Additional observations from a re-analysis of the deposited data

Results flagged for a closer look

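In the full lists the KO minus FL difference in desert share had opposite signs in the 2 sets. Taking libraries with the same number as pairs, KO 1 lay 0.128 percentage points above FL 1 and KO 2 lay 0.114 above FL 2, while KO 3 lay below FL 3 (4.98% against 5.29%, a difference of −0.311). The Tie2-Cre pair minus the mean of the Mx1-Cre pairs was −0.432 points. Within the Mx1-Cre set the pairs rest on the titles alone, and KO 1 (4.87%) lay below FL 2 (5.23%). With every list cut to equal length, KO lay below FL in each same-numbered pair. The shares were then 4.66 against 4.73%, 4.74 against 4.89% and 4.35 against 4.56%. The opposite signs were thus not seen at that length. The difference between the sets was not tested, as the Tie2-Cre set has 1 library a group.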

How the results depend on the processing

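Thresholds of 50 and 200 kb gave 16587 and 3909 desert regions, of which 14.9% and 11.3% were held by all 8 libraries, 12 and 5 lost and 57 and 19 gained in KO, 505 and 123 lost and 1618 and 464 gained in 4S-A, 1773 and 358 clusters, and 13 and 1 rank calls in 4S-A. The KO minus FL share reversed at 50 kb (0.102) and with stricter peaks (0.173), with which 14.8% were held by all 8. Equal-length lists gave 5075 regions, 18.2% held by all 8, 11 lost and 10 gained in KO, 531 gained in 4S-A and 454 clusters. Distance to a gene of any kind left 1014 regions, 9.57% held by all 8, 0 lost and 5 gained in KO, 27 lost and 124 gained in 4S-A, and 77 clusters. The lower rank of desert regions, which passed only before adjustment, did not do so when ranked by fold enrichment (−0.95, exact permutation p = 0.383). Fold enrichment also gave 2 desert rank calls in 4S-A, 0 higher and 2 lower, where the q ranks gave 6 and 1. Over all regions it called 1 higher and 16 lower, where the q ranks called 35 and 22. Without the covariate there were 0 desert calls. A change of the distance rule changes by construction how many regions enter; for the other settings the cause was not tested.

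Leaving out each library in turn gave 8517 to 8889 regions, 14.0 to 15.7% held by all remaining libraries, a KO minus FL share of −0.198 to 0.077 (positive without FL 2, FL 3, KO 1 or KO 3), 8 to 38 lost and 30 to 278 gained in KO, 273 to 838 lost and 1021 to 1688 gained in 4S-A, 846 to 894 clusters, and 0 to 9 and 0 to 13 rank calls in KO and 4S-A. Where this left 1 library in an arm, that library was assumed to vary like the other groups. With the replicate block the KO minus FL share was −0.023 (exact p = 1) and limma called 0 desert regions, so pairing changed no call. Of 181 alternative values, 118 kept their direction and side of the threshold or moved by less than the margin. The margin was a fixed factor for counts and the exact binomial interval for the share held by all 8. Of the rest, 56 moved by more, 6 reversed and 1 no longer passed the threshold. The 118 include all for the 4S-A share, but there only the sign could change. So few libraries cannot give an exact permutation p below 0.33. The 4S-A minus FL 3 and KO 3 difference in desert share ran from 0.091 points with distance to a gene of any kind to 0.797 at 50 kb. Unknown read depth limits every count of presence, since a short list can miss a weak region.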

Other observations

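Antigen receptor V segments, the gene pieces that lymphocytes join into receptor genes, fall inside deserts by the distance rule. On chromosome 12, 135 desert regions lay among them, 19 held by all 8 libraries, on chromosome 14, 53, with 6 held by all 8, and on chromosome 6, 19, with 0. In the gap between Adam6a and Zfp386 the counts of 146 regions were 32, 36 and 101 in FL 1 to 3, 49, 63 and 122 in KO 1 to 3, and 107 and 104 in 4S-A. KO was above the same-numbered FL library in all 3 pairs, but the groups overlapped. Each KO list is longer than the FL list of the same number. At equal list length the counts were 32, 32 and 57 in FL, 42, 44 and 66 in KO, and 65 and 60 in 4S-A, with KO above FL in all 3 pairs again. That order was not particular to this gap. At equal length it also stood between Kcnrg and Dleu7 (KO 15, 14 and 17, FL 12, 10 and 14) and between Id2 and Rnf144a (KO 33, 33 and 29, FL 27, 24 and 28). The share of all gaps with this order is not given here.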
